A study of Mus musculus with 12 samples.

Results

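The 41 genes described here encode the subunits, activators and assembly chaperones of the proteasome in mouse embryonic stem (ES) cells. They were taken from 13508 named genes by symbol: Psm, a letter from a to g and a number, with the inducible catalytic subunits Psmb8, Psmb9 and Psmb10 left out and a mean of at least 1 FPKM over the 12 libraries. FPKM, a fragment count scaled to transcript length and to the size of the library, is the unit of every level below. The rule itself uses symbols and the mean level, with no difference between conditions. The lowest gene inside that threshold was Psmf1, at a mean of 6.43 FPKM, and the gene just outside it was Psmd1, whose own entry averaged 0.938 FPKM. Psmd1 encodes the largest scaffold subunit of the regulatory particle, and a joint entry of Psmd1 with the gene Armc9 averaged 173 FPKM, which cannot be divided between the 2 genes. Psmg3 likewise had only a joint entry, with Tmem184a, and the subunit gene Psmd10 is not analysed here. The label "constitutive" needs 3 exceptions: Psme1 and Psme2 are interferon-inducible genes, and Psma8 encodes an alpha subunit known from germ cells.

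The study compared 129SvEv ES cell lines that were wild type (WT; lines 18 and 26) or Arkadia -/- (called null; lines 25 and 39). Arkadia is the ubiquitin ligase encoded by Rnf111. Every line was moved from medium with LIF and the inhibitors CHIRON and PD03 to N2B27 medium on fibronectin for 24 h, and all dishes then received 10 µM SB431542 (SB), which blocks the kinases of the Activin and Nodal receptors, for 4 h. One dish per line was collected at that point, and the others were washed and given 10 ng/ml Activin A for 3 h or 6 h, which makes 6 groups of 2 lines with 1 library per line. Removal of the inhibitor, the washes, the new medium and the later hour came together with Activin, and their effects cannot be told apart. The labels do not say whether a line is 1 clone, and replication is 2 lines per group. In the main fit, p-values rest on how far all 12 libraries lie from their own group means, not only those compared. Differences between the null lines therefore enter the p-values of WT comparisons too. That fit also treats libraries of the same line as independent.

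The proteasome degrades proteins that carry ubiquitin chains. Its core is a barrel of stacked rings, with alpha subunits forming the outer gates and beta subunits the inner rings, where Psmb6, Psmb7 and Psmb5 carry the caspase-like, trypsin-like and chymotrypsin-like active sites. A regulatory particle with a ring of ATPases unfolds the substrate, and Psmd14 (Rpn11) removes its ubiquitin. Alternative caps such as the PA28 activator, made of the products of Psme1 and Psme2, open the core without ATP, and dedicated chaperones help to assemble the complex. In many cells the subunit genes are induced together by the transcription factor Nfe2l1 through antioxidant response elements, while the inducible subunits and PA28 are known targets of interferon signalling and Irf1.

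Rnf111 served as the check of the labels: it lay between 3.19 and 4.27 FPKM in the 6 WT libraries and between 0.539 and 0.855 FPKM in the 6 null libraries. Summed FPKM over all loci was not equal among libraries and ran from 578104 in WT line 18 in SB to 805752 in null line 39 at 6 h. Null line 39 stood apart: in SB its sum was 722232 FPKM, against 578104 to 604602 in the other lines. The sum of 10 pluripotency markers lay between 1174 and 1638 FPKM, 8 fibroblast markers summed to 12.3 to 22.1 FPKM and 6 endoderm markers to 4.08 to 7.44 FPKM. Pou5f1 was the highest pluripotency marker in every library. Of these 10 markers, 2 were called higher and 6 lower in WT at 3 h by the test given below. Over all genes tested, 12.6% were called higher and 9.83% lower. The 9 trophoblast markers summed to 63.9 to 83.2 FPKM in WT and to 95.1 to 136.8 FPKM in null libraries, most of it Krt18, while the defining marker Cdx2 stayed between 0.924 and 1.86 FPKM.

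Proteasome transcripts were abundant in every library. The 41 genes together held 9150 FPKM in WT line 18 in SB, the lowest library, and 15112 FPKM in null line 39 at 6 h, the highest. As a share of summed FPKM this was 1.58% in both WT lines in SB, 1.71% in both at 3 h and 1.73% in both at 6 h. Null line 25 held 1.64%, 1.60% and 1.81% at the same points, and null line 39 held 1.69%, 1.78% and 1.88%. The share was higher with Activin than in SB in every line and at both times except in line 25 at 3 h. The members' sum was 1.33-fold and 1.34-fold that of SB in WT lines 18 and 26 at 3 h, while the sum of all loci was 1.23-fold in each. In null line 25 the members' sum at 3 h was 1.26-fold and that of all loci 1.29-fold. In null line 39 they were 1.14-fold and 1.09-fold. At 6 h the fold of the members' sum was above that of all loci in every line.

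**Figure D1:**
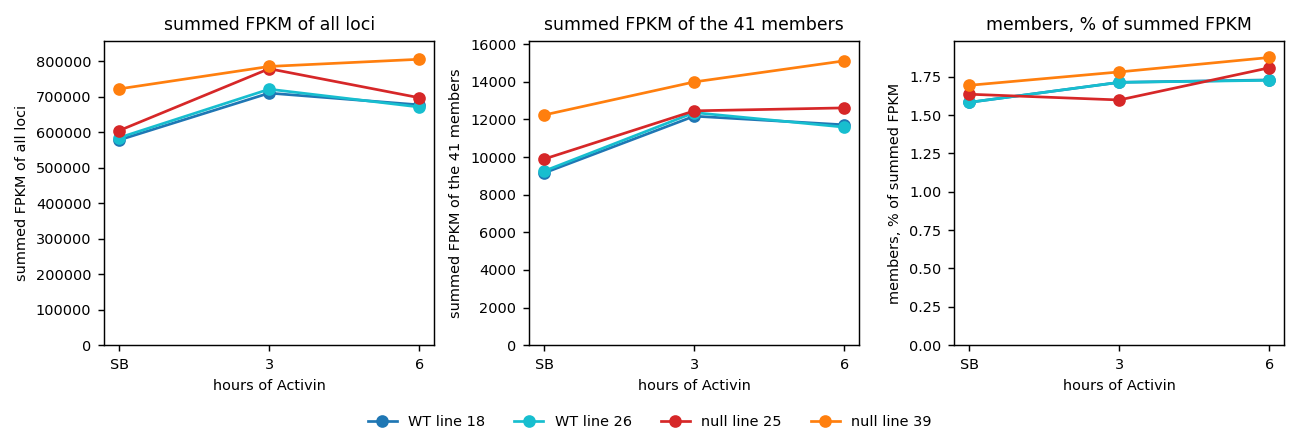
Summed FPKM of all loci (left), summed FPKM of the 41 proteasome genes (middle) and the proteasome share of summed FPKM in percent (right), by treatment, with 1 line per cell line and 1 point per library. The WT lines lie together and go from 1.58% in SB to 1.71% at 3 h, while null line 39 lies above the other lines in all 3 panels from the start.

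Within the core, levels differed widely although the rings hold equal numbers of each subunit. Without Psma8, the mean FPKM of the 14 core genes ran from 121 for Psma2 to 1292 for Psma7, a 10.7-fold range. The alpha genes Psma7 (1292 FPKM) and Psma6 (981 FPKM) and the beta genes Psmb6 (912 FPKM) and Psmb4 (703 FPKM) led. The germ cell alpha gene Psma8 averaged 12.1 FPKM and was the only core gene under 100 FPKM. ATPase genes were closest to each other, between 184 FPKM for Psmc4 and 455 FPKM for Psmc3, a 2.48-fold range. In the rest of the regulatory particle Psmd14, the deubiquitinase, was highest at 621 FPKM and the scaffold gene Psmd3 lowest at 35.6 FPKM. Activators and inhibitors lay between 6.43 FPKM for Psmf1, which encodes the inhibitor PI31, and 133 FPKM for Psme2, and assembly chaperones between 22.9 FPKM for Psmd5 and 213 FPKM for Psmg4. Reads from an overlapping gene could add to the level of Psma2, Psma4, Psma7, Psmb7, Psmc2, Psmc5, Psmd13, Psme1 and Psmg2, and annotated pseudogenes could share reads with Psmb5, Psmb6 and Psmb7, so these levels are uncertain. Whether counting used the strand is not given in the sources used here.

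After 3 h of Activin in WT cells, 17 of the 41 genes were called at an adjusted p under 0.05, 16 higher and 1 lower, while 22.5% of the 12823 genes tested were called, 12.6% higher and 9.83% lower. The test was limma on log2(FPKM + 1), with the Benjamini-Hochberg method applied across the whole table. The genes that rose comprised 5 of 8 alpha genes, 4 of 7 beta genes, 3 of 6 ATPase genes, Psmd14, the activators Psme1 and Psme2 and the chaperone gene Psmg4, and the gene that fell was Psmd2. The median log2 change of the members was 0.28, against -0.0094 over all genes tested. In bulk RNA a change in how many cells make a transcript and a change in RNA per cell cannot be told apart. The direction of the family depended on the scale: with each library scaled to the same summed FPKM, which put the median of all genes at -0.26, 10 members were higher and 6 lower (34.9% of all genes called) and their median was -0.016. With quantile normalization 9 were higher and 5 lower (23.9% of all genes called), with a median of -0.0040. On the deposited scale and at equal summed FPKM, the members' median lay above that of all genes. The median of all genes after quantile normalization is not given here.

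Line as a block left the changes the same and gave 32 calls, 29 higher and 3 lower, and 37.2% of all genes were called with it; all 17 genes were among the 32. Leaving out WT line 18 or WT line 26 left 1 call, Psme2, in either case (1.12% and 1.07% of all genes called), and the median change was then 0.29 or 0.28. Leaving out null line 25 or null line 39, which changes only the estimate of the spread here, gave 31 calls in each case, with 34% of all genes called. With only the compared groups in the fit, 26 members were called (28.8% of all genes).

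**Figure D2:**
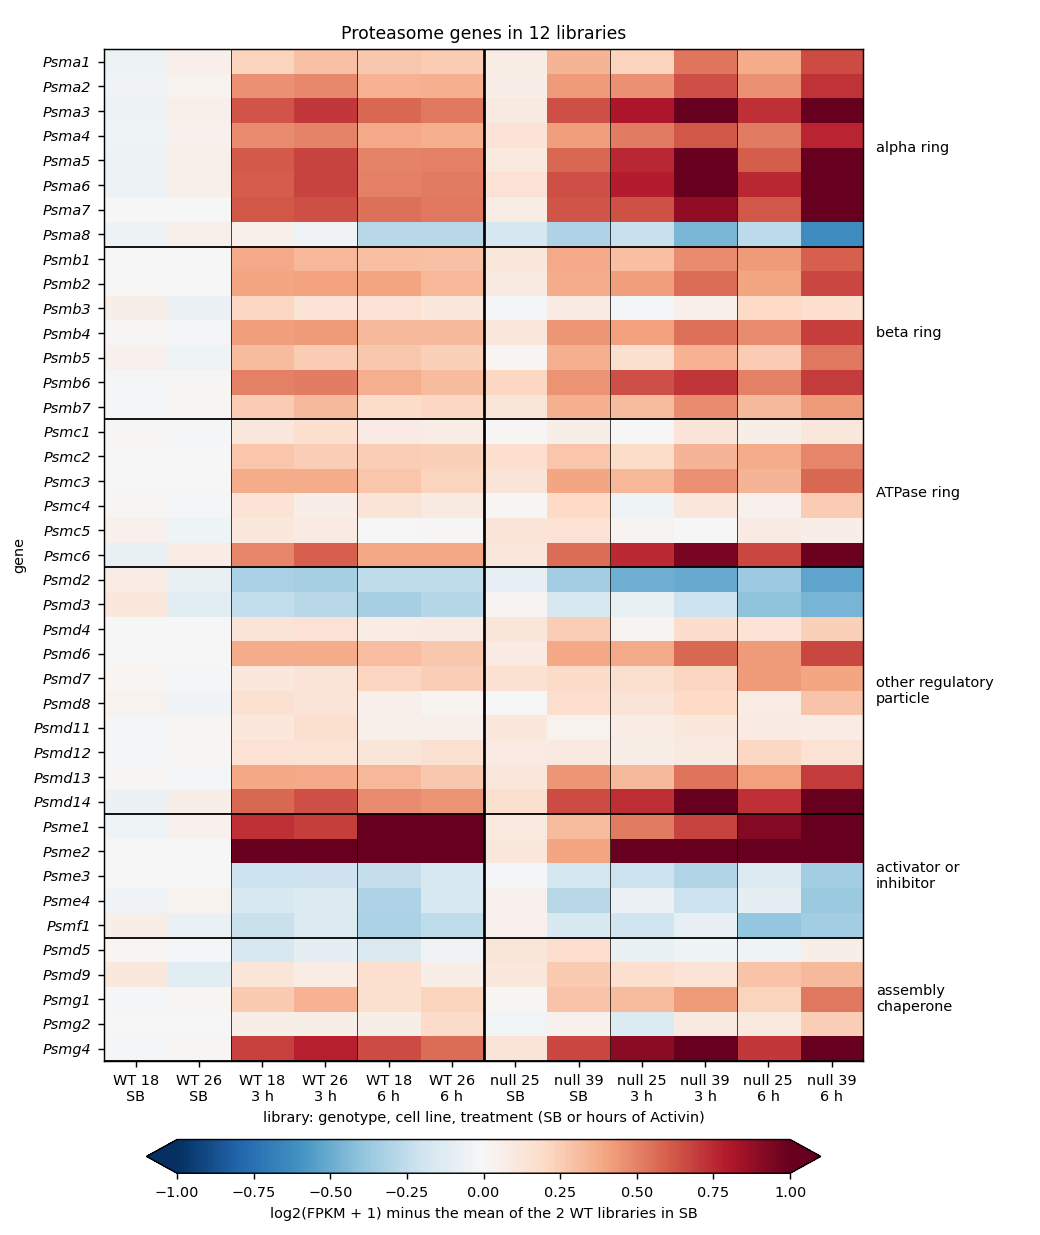
Heat map of the 41 genes (rows, by role) in the 12 libraries (columns), coloured by log2(FPKM + 1) minus the mean of the 2 WT libraries in SB, with colours saturating at changes of 1. Alpha and beta rows other than Psma8 are red in most Activin libraries and already in null line 39 in SB, the rows of Psme1 and Psme2 are darkest at 6 h, and Psmd2 and Psmd3 are blue.

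The alpha ring had the largest changes of the core. Psma6, a constitutive gate subunit, stood at 623 FPKM in WT line 18 and 664 FPKM in WT line 26 in SB, at 978 and 1028 FPKM at 3 h and at 915 and 920 FPKM at 6 h. Null line 25 went from 711 FPKM in SB to 1111 FPKM at 3 h and 1084 FPKM at 6 h, and null line 39 from 1007 to 1309 and 1418 FPKM. All 4 lines were higher with Activin than in their own SB library, but null line 39 in SB was already as high as the WT lines at 3 h. On the log2 scale Psma6 rose by 0.64 (SE 0.18, adjusted p = 0.0362) at 3 h in WT. Psma3 (0.67), Psma5 (0.64), Psma4 (0.48) and Psma2 (0.47) rose as well, while Psma7 had a change of 0.63 that missed the threshold (SE 0.20, adjusted p = 0.0512, and called with line as a block). Psma8 did not follow the ring: its WT mean was 14.1 FPKM in SB, 14.1 FPKM at 3 h and 11.4 FPKM at 6 h, a log2 change of 0.0071 (SE 0.13) at 3 h. At 6 h its change of -0.28 was not called (adjusted p = 0.150), except with line as a block (adjusted p = 0.0246).

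Of the 3 constitutive catalytic genes, only Psmb6 was called in WT at 3 h. It stood at 672 and 683 FPKM in the WT lines in SB, 961 and 967 FPKM at 3 h and 870 and 844 FPKM at 6 h. In null line 25 it read 783, 1061 and 962 FPKM at the same points, and in null line 39 it read 925, 1115 and 1098 FPKM. In all 4 lines the value at 3 h was the highest, and the WT groups in SB and at 3 h did not overlap. The WT change at 3 h was 0.51 (SE 0.10, adjusted p = 0.0125). Psmb5 changed by 0.28 (SE 0.13, adjusted p = 0.137) and Psmb7 by 0.29 (SE 0.098, adjusted p = 0.0632), and both were called with line as a block. The structural genes Psmb4 (0.42), Psmb2 (0.40) and Psmb1 (0.36) rose, and Psmb3 changed by 0.17. Scaled to the same summed FPKM, the change of Psmb6 was 0.21 and those of Psmb5 and Psmb7 were -0.016 and -0.010.

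The ATPases split. Psmc6 rose by 0.54 (SE 0.16, adjusted p = 0.0403), Psmc3 by 0.37 and Psmc2 by 0.26, while Psmc1, Psmc4 and Psmc5 changed by 0.14, 0.10 and 0.094 and were not called. Psmc6 read 228 and 254 FPKM in the WT lines in SB and 337 and 365 FPKM at 3 h. Psmc5, by contrast, read 285 and 269 FPKM in SB and 299 and 293 FPKM at 3 h. Subunits of 1 ring thus had RNA changes between 0.094 and 0.54. The call on Psmc2 turned with the scale, to a change of -0.038 at equal summed FPKM and of -0.054 after quantile normalization.

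Members of the regulatory particle outside the ATPase ring moved both ways. Psmd14 stood at 398 and 431 FPKM in the WT lines in SB, 619 and 649 FPKM at 3 h and 577 and 567 FPKM at 6 h. Null line 25 read 463, 693 and 687 FPKM, and null line 39 read 650, 827 and 887 FPKM. Every line was higher with Activin, and the WT change at 3 h was 0.61 (SE 0.17, adjusted p = 0.0381). Psmd2 encodes the large scaffold subunit Rpn1, and it was the only member that fell in WT at 3 h. Its values were 84.0 and 75.6 FPKM in the WT lines in SB and 63.4 and 63.0 FPKM at 3 h, a change of -0.33 (SE 0.094, adjusted p = 0.0390). The 2 null lines were also lower at 3 h than in SB, at 56.5 against 75.1 FPKM in line 25 and 55.8 against 62.6 FPKM in line 39. Psmd3, another scaffold gene, changed by -0.26 at 3 h (adjusted p = 0.0651) and fell by 0.31 at 6 h (SE 0.089, adjusted p = 0.0481).

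At 6 h in WT, 4 members were called, against 15.9% of all genes tested, 9.59% higher and 6.31% lower: Psme1, Psme2 and Psmd7 rose and Psmd3 fell. The median log2 change was 0.24, and 25 members had an unadjusted p under 0.05 by limma, against 4493 of the 12823 genes tested. Line as a block gave 31 calls, 26 higher and 5 lower, with 33.9% of all genes called. Leaving out WT line 18 or WT line 26 left Psme2 alone (0.912% and 0.694% of all genes), and leaving out null line 25 or null line 39 gave 31 calls (30.3% and 30.4%). At equal summed FPKM 3 were called, 2 higher and 1 lower (13.7% of all genes). Psmd7, the Rpn8 partner of Psmd14, went from 208 and 202 FPKM in the WT lines in SB to 238 and 243 FPKM, a change of 0.23 (SE 0.057, adjusted p = 0.0314), which became 0.014 at equal summed FPKM and -0.023 after quantile normalization. Between 3 h and 6 h in WT the median change was -0.084, and 31 of 41 members were lower at 6 h, against 6116 of the 12823 genes tested. Only Psme2 was called (2.53% of all genes were), joined by Psme1 with line as a block (6.64%). Psme2 rose by 0.60 between these times (SE 0.11, adjusted p = 0.0274).

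At 6 h the PA28 genes Psme2 and Psme1 had the largest changes of the family in both genotypes. They also had the largest changes between 3 h and 6 h. At 3 h only Psme2 stood apart. Psme1 then changed by 0.71 in WT and 0.39 in null cells, against 0.73 and 0.61 for Psmg4. Psme1 and Psme2 lie near each other on chromosome 14 (mm10). The deposited locus of Psme1 is at 55578326 to 55585314 on the plus strand and that of Psme2 at 55587348 to 55591091 on the minus strand. Their promoters are printed with the matches to the motifs searched in capitals, 250 bases before to 50 bases after the start, 5′ to 3′ on the strand of the gene, from RefSeq on GRCm38.p6. The letters searched for an interferon regulatory factor (IRF) element were GAAA, any 2 bases and GAAA, on both strands, and the Psme1 promoter holds a match on the opposite strand, 9 bases after the start. The other motifs searched, a response element core and the CCAAT box, are described with the chaperones, and their matches are in capitals too. No match lies in the listed window of Psme2, which says only that these letters are not there.
Psme1, chr14:55578244-55578543, plus strand: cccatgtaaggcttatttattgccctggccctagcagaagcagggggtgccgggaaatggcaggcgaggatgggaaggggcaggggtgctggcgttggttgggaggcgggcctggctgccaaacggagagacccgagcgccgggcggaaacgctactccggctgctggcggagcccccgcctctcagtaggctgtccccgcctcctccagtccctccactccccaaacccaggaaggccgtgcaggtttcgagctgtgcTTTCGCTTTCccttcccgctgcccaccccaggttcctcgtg
Psme2, chr14:55591052-55591351, minus strand: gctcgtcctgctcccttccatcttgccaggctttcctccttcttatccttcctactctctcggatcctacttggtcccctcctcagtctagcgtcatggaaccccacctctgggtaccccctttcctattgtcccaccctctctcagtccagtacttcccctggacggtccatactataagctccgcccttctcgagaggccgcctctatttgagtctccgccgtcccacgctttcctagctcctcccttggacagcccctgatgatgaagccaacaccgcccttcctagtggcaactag

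Psme2 stood at 55.2 FPKM in WT line 18 and 55.1 FPKM in WT line 26 in SB, at 150.0 and 138 FPKM at 3 h and at 222 and 215 FPKM at 6 h. In null line 25 it read 59.6, 118 and 179 FPKM, and in null line 39 it read 73.0, 123 and 213 FPKM. Every line rose at each step, and no Activin library of any line overlapped an SB library. The WT change was 1.37 (SE 0.11, adjusted p = 9.93e-05) at 3 h and 1.97 (SE 0.11, adjusted p = 1.14e-05) at 6 h, a 3.97-fold difference in mean FPKM. In null cells the changes were 0.86 (SE 0.11, adjusted p = 0.00211) and 1.55 (SE 0.11, adjusted p = 7.00e-05). The WT calls at 3 h and 6 h and the null call at 6 h were kept in 14 of 14 alternatives each, with changes at 3 h in WT between 1.07 and 1.43.

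Psme1 moved with it at a smaller scale. In the WT lines it read 62.1 and 66.3 FPKM in SB, 107 and 104 FPKM at 3 h and 145 and 152 FPKM at 6 h. Null line 25 went from 68.9 to 92.5 and 122 FPKM, and null line 39 from 80.0 to 103 and 149 FPKM. The groups did not overlap within a genotype. WT changes were 0.71 (SE 0.11, adjusted p = 0.00370) and 1.19 (SE 0.11, adjusted p = 0.000242), and null changes were 0.39 (adjusted p = 0.0460) and 0.85 (adjusted p = 0.00185). The null call at 3 h was lost in 5 of 14 alternatives, among them equal summed FPKM, where the change was 0.15, and leaving out null line 25, WT line 18 or WT line 26. Without WT line 18 or WT line 26 the WT call of Psme1 was lost as well. Psme3, which encodes the nuclear activator PA28 gamma, did not rise: its WT mean went from 58.9 FPKM in SB to 50.7 FPKM at 3 h, a change of -0.21 (SE 0.084, adjusted p = 0.0975). Psme4 (PA200) and Psmf1 changed by -0.15 and -0.18, and neither was called.

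The excluded inducible subunits and the interferon list give the values beside PA28. Psmb8 rose by 1.79 at 3 h and 2.66 at 6 h in WT, from a mean of 0.354 FPKM in SB, Psmb10 by 1.21 and 1.63 and Psmb9 by 0.70 and 0.96. In null cells Psmb8 rose by 0.94 and 2.14 and Psmb10 by 0.60 and 1.20. Psmb9 rose by 0.87 at 6 h in null cells. Psmb8 was lower in null than in WT at 3 h by 1.14 on the log2 scale (SE 0.18, adjusted p = 0.0477 by limma). It was the only difference between genotypes called among the 13 proteasome partner genes. Its level at 3 h was low, at 3.31 and 4.10 FPKM in the WT lines and 1.45 and 0.851 FPKM in the null lines. On line means no gene was called between genotypes, and none was called for the difference in the 3 h response. Irf1 encodes a transcription factor of this pathway, and it went from 3.99 and 3.61 FPKM in the WT lines in SB to 76.9 and 85.3 FPKM at 3 h and 45.3 and 46.9 FPKM at 6 h, a change of 4.10 at 3 h. Of the 10 genes of the interferon and antigen processing list, 3 rose in WT at 3 h (Irf1, Tap2 and Erap1) and none fell, and at 6 h 5 rose.

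**Figure D3:**
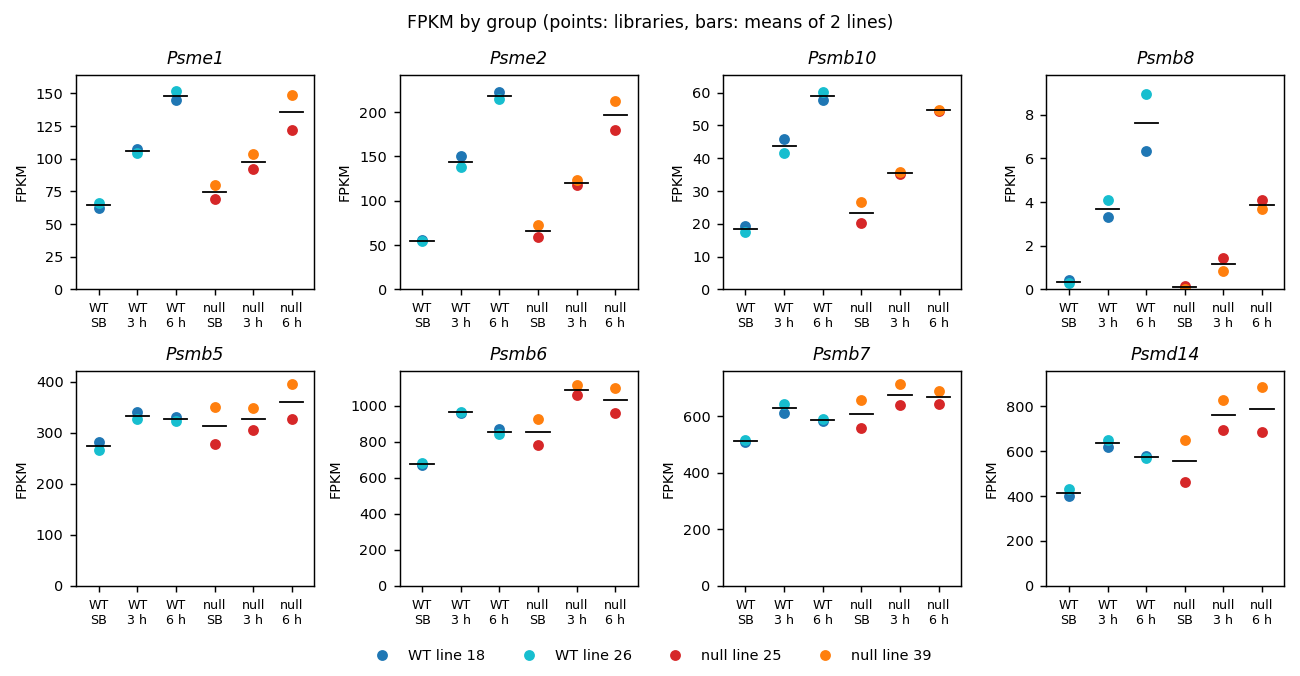
FPKM of Psme1, Psme2, Psmb10, Psmb8, Psmb5, Psmb6, Psmb7 and Psmd14 in the 6 groups, where dots are libraries, colours are cell lines and bars are means of 2 lines, each axis from 0. Psme1, Psme2, Psmb10 and Psmb8 are highest at 6 h in both genotypes, while in WT Psmb6, Psmb7 and Psmd14 are highest at 3 h.

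Among the assembly chaperones only Psmg4, a partner in the pairing of alpha subunits, was called. It went from 133 and 135 FPKM in the WT lines in SB to 216 and 231 FPKM at 3 h, a change of 0.73 (SE 0.19, adjusted p = 0.0302) and the largest of the family after Psme2. Null line 25 read 147 FPKM in SB and 251 FPKM at 3 h, and null line 39 read 213 and 292 FPKM. All 4 lines were higher at 3 h, and again null line 39 began near the WT level at 3 h. Its transcript, of 474 bases, is the shortest of the 41. The chaperone genes Psmg1 (0.30), Psmd9 (0.10), Psmg2 (0.058) and Psmd5 (-0.13) were not called. Of the other genes that work with the proteasome, 5 of 13 rose and 2 fell in WT at 3 h: Psmb8, Psmb9, Psmb10, Pomp (0.52), which matures the beta ring, and Shfm1 (0.31), a small lid subunit, rose, and the deubiquitinase gene Usp14 (-0.21) and Zfand5 (-0.23) fell.

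The Nfe2l1 axis showed no joint direction. Of its 10 genes, 2 rose (Maff at 0.78, and Ufd1l) and 1 fell (Keap1 at -0.45) in WT at 3 h, with a median change of -0.11. Nfe2l1 itself read 19.6 and 17.6 FPKM in the WT lines in SB and 15.3 and 16.2 FPKM at 3 h, and it was not called. The core of the antioxidant response element, searched as TGACNNNGC on both strands, lay in the promoters of 6 of the 33 members matched in RefSeq (18.2%), against 14.0% of 27025 genes. The CCAAT box lay in 11 of 33 (33.3%) against 41.1%, and the IRF letters in 5 of 33 (15.2%; Psmb3, Psmd4, Psmd9, Psme1 and Psmg4) against 3.99%. Psmb6 is shown for the response element core, 9 bases before the start, and Psmg4 for the IRF match 15 bases after it, since both rose at 3 h.
Psmb6, chr11:70525107-70525406, plus strand: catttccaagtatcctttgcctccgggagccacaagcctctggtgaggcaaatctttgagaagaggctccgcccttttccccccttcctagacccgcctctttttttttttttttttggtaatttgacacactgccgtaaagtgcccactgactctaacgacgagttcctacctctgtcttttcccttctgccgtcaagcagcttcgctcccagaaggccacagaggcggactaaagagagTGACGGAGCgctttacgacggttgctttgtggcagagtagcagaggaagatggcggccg
Psmg4, chr13:34162714-34163013, plus strand: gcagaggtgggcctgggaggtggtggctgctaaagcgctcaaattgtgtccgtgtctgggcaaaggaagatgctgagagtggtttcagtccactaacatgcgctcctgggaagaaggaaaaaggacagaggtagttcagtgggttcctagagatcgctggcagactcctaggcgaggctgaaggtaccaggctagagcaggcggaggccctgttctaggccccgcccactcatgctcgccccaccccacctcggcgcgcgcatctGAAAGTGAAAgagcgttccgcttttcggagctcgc

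These matches are a description of letters and not of sites. Of the 5 members with the IRF letters, Psme1 and Psmg4 were called in WT at 3 h, and Psmb3, Psmd4 and Psmd9 changed by 0.17, 0.14 and 0.10 and were not called. Among the members with the response element core, Psmb6 and Psmc6 rose, and Psmb5, Psmd12, Psmd9 and Psme4 were not called. Of 8 genes of ubiquitin supply, Ube2k (0.45) and Ube2n (0.35) rose and Uba6 (-0.37) fell.

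In null cells fewer members were called at 3 h than in WT (2 against 17), and as many at 6 h (4 each). At 3 h the calls were Psme1 and Psme2, both higher, while 13.6% of all genes were called, 6.5% higher and 7.14% lower, and the median change of the members was 0.13. At 6 h they were Psme1, Psme2 and Psmd7 higher and Psmd3 lower, against 13.4% of all genes, 7.87% higher and 5.53% lower, with a median of 0.20. Line as a block, which takes out the offset between null lines 25 and 39, gave 23 calls at 3 h (20 higher and 3 lower, 29.5% of all genes) and 28 at 6 h (24 higher and 4 lower, 31.4%). With only the compared groups in the fit, limma called 0 members at 3 h (1.37% of all genes) and 1 at 6 h (0.99%). At 3 h, 6 members had an unadjusted p under 0.05, a count that stands without the share of all genes. At equal summed FPKM, 2 rose and 5 fell at 3 h (21.9% of all genes), with a median of -0.11 (-0.21 for all genes), and 2 rose at 6 h (8.4%). Between 3 h and 6 h in null cells only Psme1 and Psme2 were called, against 4.63% of all genes, and line as a block added Psmd7 and Psmc2 higher and Psmd3 lower (13.4%). For null 3 h against SB, leaving out null line 25 gave 4 calls (3.46% of all genes), null line 39 gave 17 (16%), and WT line 18 or WT line 26 gave 1 (1.9% each). For null 6 h these counts were 19 (11%), 21 (13.9%), 2 (2.99%) and 2 (3.01%).

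Direction within each line can be read without the spread between lines. At 3 h, 24 members were higher than SB in all 4 lines and 4 lower in all 4, and at 6 h 31 were higher and 7 lower in all 4. These counts were not made over all genes, and the sum of all loci was also higher with Activin in every line. Whether the counts differ from the rest of the genes was not tested. Psmb3, Psmc4, Psmc5 and Psmd4 were higher in both WT lines and lower in both null lines at 3 h. The test of that difference called none of them: Psmc5 had the lowest unadjusted p of the 4, with a log2 difference of -0.21 (SE 0.083, adjusted p = 0.928). At 6 h no member differed in this way.

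The difference between genotypes in the response was tested itself. At 3 h limma called 0 members and 0 genes in all (0% of all genes), and 2 members, Psme2 and Psmc5, had an unadjusted p under 0.05. In each range of transcript length up to 3 kb, the median difference of all genes at 3 h was below 0. It was -0.12 under 1 kb (members -0.17) and -0.033 between 2 and 3 kb (members -0.10). The change was lower in null than in WT for 36 of 41 members at 3 h, with a median difference of -0.13, and for 25 of 41 at 6 h, with a median of -0.023. These counts, and those at an unadjusted p in this paragraph, stand without the share of all genes. Whether the members differ from other genes of their length was not tested. Psme2 had the largest difference, -0.51 (SE 0.15, adjusted p = 0.760) at 3 h and -0.42 (SE 0.15, adjusted p = 1.000) at 6 h, where it was the only member with an unadjusted p under 0.05. The difference was not called at either time, and in all 4 lines Psme2 was higher with Activin.

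Compared directly, null and WT cells differed in no called member. In SB 0 of 41 were called by limma (0.312% of all genes), with 11 at an unadjusted p under 0.05 and a median change of 0.21. At 3 h it was 0 (0.382%), with 2 at an unadjusted p under 0.05, and at 6 h 0 (0.211%), with 7. On the means of each line, the unit of genotype, 0 members were called (0% of all genes), with 2 at an unadjusted p under 0.05. The counts at an unadjusted p stand here without the share of all genes. The positive median in SB was larger with null line 39: the median was 0.096 without it and 0.31 without null line 25. Without null line 25, 27 members were called in SB (16% of all genes), 0 at 3 h (1.06%), 23 at 6 h (11.8%) and 17 on line means (9.3%), where 1 line stands for the genotype and is assumed to vary like the others. At equal summed FPKM the median in SB was 0.023. The trophoblast markers, also higher in null libraries, and the larger summed FPKM of null line 39 move with this comparison, and their part in it was not tested.

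Short transcripts changed more than long ones, in the family and in the table as a whole. The members' median transcript length was 1512 bases, against 2793 bases for all genes with a length. In WT at 3 h the 8 members under 1 kb had a median change of 0.57, against 0.32 for all 953 genes of that length, and the 12 members between 1 and 1.5 kb had 0.30, against 0.12. Between 2 and 3 kb the 7 members had a median of 0.14, against -0.067, and the 4 members over 3 kb had -0.16, against -0.078. The 10 members between 1.5 and 2 kb had 0.20, against 0.034. In each length range up to 3 kb the members' median was therefore above that of all genes, and over 3 kb it was below. Across the 41 members the change was correlated with log2 length at a Pearson r of -0.55 (Spearman -0.53), and across 11805 genes at -0.19, as a description over genes that share libraries and are not independent. With trends of length and GC content removed within each library, 17 members were called in WT at 3 h, all higher (22.1% of all genes called), with a median of 0.095. Of those, 15 were among the 17 called without the correction, and the scaffold gene Psmd2 was no longer called.

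**Figure D4:**
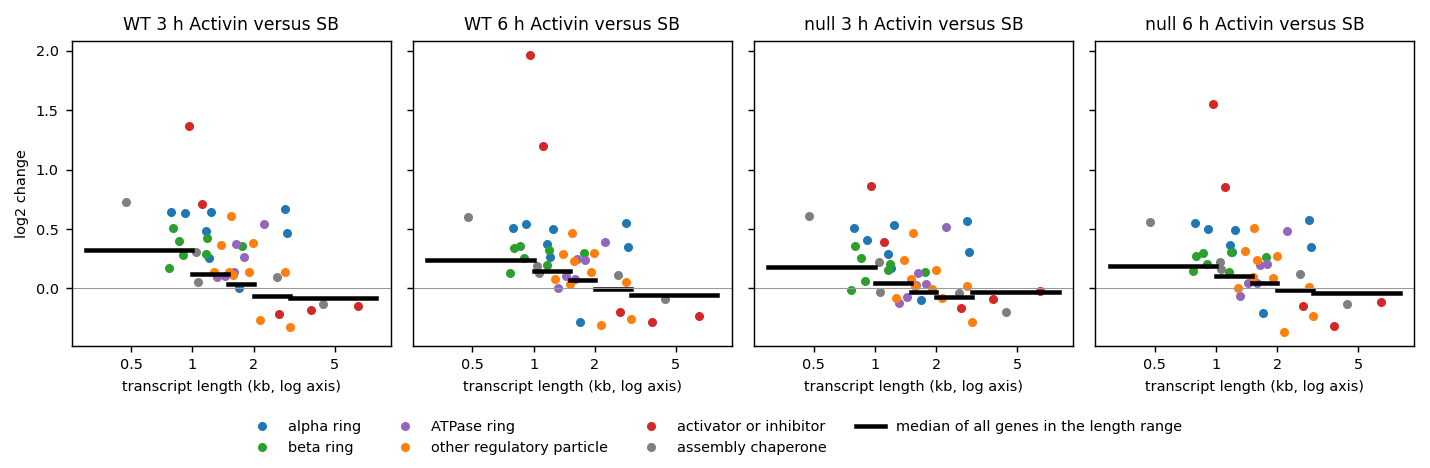
Log2 change with Activin against transcript length (log axis, kb) for the 41 genes, coloured by role, in the 4 comparisons with SB, with black bars for the median of all genes in each length range. In WT at 3 h the medians of the members lie above the bar in each range up to 3 kb (0.57 against 0.32 under 1 kb), and the red points far above the bars are Psme2 and Psme1.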

How the data were processed

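Poly(A) RNA of 12 cultures was sequenced as 50 bp single reads, per the labels' protocols. The authors deposited 1 table of FPKM values per locus for all libraries, aligned to mm10 per the submitters' processing notes, by a sequencing company per the labels. Which aligner and quantification tool were run, and whether strand was used, is not given in the sources used here. The table holds no counts and depth per library is unknown, but steps between low FPKM values place the deepest library at 1.81 times the shallowest. Of 17446 loci, 2666 without a name and 27 named loci flagged as not quantified were left out, 1 row was kept per name and 13508 genes remained.

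Genes with at least 1 FPKM in at least 2 libraries (12823, all 41 members among them) were fitted as log2(FPKM + 1) with limma 3.58.1 in R 4.3.3, with 6 group means, a trend in the variance and Benjamini-Hochberg adjustment over all genes; fold changes are on that scale and understate the change of low genes. A call is an adjusted p under 0.05. In all, 12 comparisons were fitted. The script was tested on simulated data. Libraries of 1 cell line share a line by the labels, so line was tried as a replicate block: deviations from the group means of libraries of the same line correlated at 0.0165 to 0.0537 in WT and 0.246 to 0.349 in null. No block is possible between genotypes, since each line has 1 genotype. Members and gene lists were chosen with earlier results of these data known. Named were all called members where 10 or fewer, otherwise those with the largest and smallest changes, the extremes of each role, the catalytic genes, Psmd14, Psme1 and Psme2, and listed genes called; other members are given by their values. Alternatives comprised the pseudocount, the filter, scaling, the groups fitted, each line left out and, added after seeing the data, equal summed FPKM and removal of length and GC trends. Promoters came from RefSeq, GRCm38.p6, where 33 of 41 members matched; Python 3.11.15 was used for tables and figures.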

Additional observations from a re-analysis of the deposited data

How the results depend on the processing

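Counts of members called moved by more than 1.5 times in 55 of 159 comparisons with an alternative setting, and the cause was not tested. The 159 include comparisons between genotypes whose count was 0 and mostly stayed at 0, which is counted as not moved. Among comparisons between treatments, most of the counts moved. The share of all genes called under the same setting stands in parentheses. With line as a replicate block the counts were 32 (37.2%) for WT 3 h, 31 (33.9%) for WT 6 h, 2 (6.64%) for WT 6 h against 3 h, 23 (29.5%) for null 3 h, 28 (31.4%) for null 6 h and 5 (13.4%) for null 6 h against 3 h, where the fit without it gave 17, 4, 1, 2, 4 and 2. The block changed no call of a difference in response between genotypes. With only the compared groups in the fit the counts were 26 (28.8%), 25 (24.3%), 2 (0.491%), 0 (1.37%), 1 (0.99%) and 0 (0%), in the same order. Length and GC trends removed gave 2 (3.05%) for WT 6 h against 3 h and 6 (17%) for null 3 h. With the replicate block as well they gave 24 (30.2%) for WT 6 h, 3 (7.73%) for WT 6 h against 3 h, 19 (29.1%) for null 3 h, 19 (27.3%) for null 6 h and 4 (10.7%) for null 6 h against 3 h. Equal summed FPKM gave 2 (1.09%) for WT 6 h against 3 h, 7 (21.9%) for null 3 h and 2 (8.4%) for null 6 h, and quantile normalization gave 2 (2.98%), 7 (16.1%) and 9 (15.4%). For null 6 h against 3 h, pseudocount 0.1 (4.41%), no filter on low values (4.19%) and median-ratio scaling (4.3%) each gave 1.

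Leaving out 1 cell line at a time gave 1 to 31 calls for WT 3 h and for WT 6 h, 0 to 2 for WT 6 h against 3 h, 1 to 17 for null 3 h, 2 to 21 for null 6 h and 0 for null 6 h against 3 h in every case. It gave 0 to 27 for null against WT in SB, 0 to 23 at 6 h and 0 to 17 on line means, where the high values are those without null line 25; at 3 h and for both differences in response it was 0 throughout. A line left out leaves a lone library in its group, assumed to vary like the others. Direction reversed for Psmc2 in WT at 3 h, with -0.054 after quantile normalization and -0.038 at equal summed FPKM, and for Psmd7 in WT at 6 h, with -0.023 after quantile normalization. Of the other settings for single genes called, 325 kept the call and 92 lost it. The main limits are 2 lines per group, FPKM without counts, and summed FPKM that differed between libraries.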

Other observations

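Other large complexes give a scale for the proteasome values. In WT at 3 h, 58 of 76 cytosolic ribosomal protein genes rose with a median log2 change of 0.55, 44 of 77 oxidative phosphorylation genes with a median of 0.45, and 22 of 70 mitochondrial ribosomal protein genes with a median of 0.33, against 16 of 41 and 0.28 for the proteasome. At 6 h the medians were 0.36, 0.34 and 0.28, against 0.24. Complexes related to the regulatory particle by descent or by their work on protein folding changed less at 3 h: 2 of 8 COP9 signalosome genes rose (median 0.11), 2 of 13 eIF3 genes (median 0.035) and 1 of 8 genes of the chaperonin TRiC (median 0.15). Differences between these lists were not tested.

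The library of null line 39 at 6 h held the highest value of 23 of the 41 members, and WT line 18 and WT line 26 in SB held the lowest of 20 and 12. Such counts were not made over all genes. Psmb5 and Psmb6 are among the 6 members whose promoters hold a match to the response element core. Their changes in WT at 3 h were 0.28, not called, and 0.51, called. The other members with the core changed by 0.54 (Psmc6), 0.14 (Psmd12), 0.098 (Psmd9) and -0.15 (Psme4). A link between the core and the change was not tested.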
